A study of Mus musculus with 30 samples.

Results

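Gbx2, En1, En2, Pax2, Pax5, Pax8, Pax3, Msx3 and Dbx1 encode 9 transcription factors of the midbrain, the hindbrain and the dorsal and intermediate neural tube. They were taken by symbol from a study of mouse embryonic stem (ES) cells and of the embryoid bodies (EBs) that such cells form in suspension, and each had 1 row among the 23284 genes of both deposited tables. The study asks how p53 works with Wnt and TGF-β inputs on genes of the mesendoderm, the forerunner of mesoderm and endoderm. In 4 RNA libraries the genotype was tested in EBs at day 4, with 2 libraries of Trp53-/- cells in which p63 and p73 are also targeted by short hairpin RNAs (shRNAs), a group named p53 family loss below, and 2 of a Trp53+/+ line. Another 10 RNA libraries follow E14 cells (E14Tg2a.IV, 129/Ola) without genetic change, 2 on each of 5 days, as ES cells at day 0 and as EBs at days 1 to 4.

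The genotype lines are on a C57BL/6J background and were kept as ES cells in N2B27 medium with LIF and the inhibitor pair called 2i, whereas the E14 cells were kept in serum with LIF on gelatin. Each genotype is 1 line, and the labels give no shRNA for the Trp53+/+ line, so genotype, shRNA carriage and line cannot be told apart. Nothing in the labels tells separate cultures from repeat libraries of 1 culture, so the p-values here reflect spread between libraries that may be technical. These are bulk libraries of mixed EBs, in which fewer cells of a type and less RNA per cell cannot be told apart.

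In the early neural tube the border between midbrain and hindbrain forms where Otx2, on the anterior side, meets Gbx2, on the posterior side. The isthmic organizer that arises there secretes Fgf8 and Wnt1, and En1, En2, Pax2, Pax5 and Pax8 are expressed across this territory and help maintain it. Pax3 and Msx3 mark dorsal progenitors of the neural tube, and Dbx1 marks a narrow band of intermediate progenitors that produces V0 interneurons. Several of these factors also act elsewhere. Gbx2 is also a LIF/Stat3 target in naive ES cells, Pax2 and Pax8 also act in the intermediate mesoderm and kidney, Pax8 in the thyroid, Pax5 in B cells and Pax3 in the dermomyotome.

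Promoter sequence was looked up for the 9 genes in RefSeq (mouse build GRCm38.p6), as a window from 250 bases before to 50 after each start, and 7 genes had at least 1 window. Windows are shown for Dbx1 and Msx3, which had at most 1 read in any Trp53+/+ library, for Pax5, whose window holds a motif that is rare among promoters, and for En1 and Gbx2, the isthmus genes called between the genotypes. Dbx1 is at chr7:49636786-49637085, Msx3 at chr7:140049039-140049338, Pax5 at chr4:44710645-44710944 and Gbx2 at chr1:89931127-89931426, all on the minus strand, and En1 is at chr1:120602237-120602536 on the plus strand. Each is written 5′ to 3′ along its gene. Capitals mark the Tcf/Lef cores CTTTGA and CTTTGT, which Wnt effectors bind, the Smad box CAGAC, which TGF-β effectors bind, and a p53 pair CATGNNNNNNCATG, each searched on both strands, so that a site on the other strand appears as its reverse complement.
Dbx1: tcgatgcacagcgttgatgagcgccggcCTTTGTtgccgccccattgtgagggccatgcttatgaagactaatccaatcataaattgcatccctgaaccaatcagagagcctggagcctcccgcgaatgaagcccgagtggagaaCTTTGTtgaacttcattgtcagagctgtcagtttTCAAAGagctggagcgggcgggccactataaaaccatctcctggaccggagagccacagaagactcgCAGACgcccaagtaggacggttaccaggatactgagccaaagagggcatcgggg
Msx3: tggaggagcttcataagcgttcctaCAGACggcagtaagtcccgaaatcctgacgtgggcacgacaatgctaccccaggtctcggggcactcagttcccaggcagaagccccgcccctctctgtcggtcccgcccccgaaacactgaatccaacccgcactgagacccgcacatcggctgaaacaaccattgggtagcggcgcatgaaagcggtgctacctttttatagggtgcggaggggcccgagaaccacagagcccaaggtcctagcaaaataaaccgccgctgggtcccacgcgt
Pax5: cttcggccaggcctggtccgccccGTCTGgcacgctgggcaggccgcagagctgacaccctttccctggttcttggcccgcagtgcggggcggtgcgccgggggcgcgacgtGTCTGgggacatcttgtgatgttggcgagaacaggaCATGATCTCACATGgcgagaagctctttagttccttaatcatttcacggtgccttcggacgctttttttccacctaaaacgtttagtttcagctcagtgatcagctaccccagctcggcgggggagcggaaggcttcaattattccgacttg
En1: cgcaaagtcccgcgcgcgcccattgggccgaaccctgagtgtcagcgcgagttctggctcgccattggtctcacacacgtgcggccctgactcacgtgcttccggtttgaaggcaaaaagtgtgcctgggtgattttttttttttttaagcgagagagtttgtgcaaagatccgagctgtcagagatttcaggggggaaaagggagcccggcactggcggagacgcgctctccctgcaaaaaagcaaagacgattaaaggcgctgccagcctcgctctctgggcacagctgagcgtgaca
Gbx2: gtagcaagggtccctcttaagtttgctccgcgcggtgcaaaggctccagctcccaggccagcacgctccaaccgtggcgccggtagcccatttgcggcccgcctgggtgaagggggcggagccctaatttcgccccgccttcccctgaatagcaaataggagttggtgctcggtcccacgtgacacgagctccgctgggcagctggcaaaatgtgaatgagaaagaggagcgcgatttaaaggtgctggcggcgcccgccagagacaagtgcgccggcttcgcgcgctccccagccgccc

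The Dbx1 window held 3 Tcf/Lef cores, 1 of the form CTTTGA and 2 of the form CTTTGT, and 1 Smad box. At least 3 Tcf/Lef cores of either form were found in 1.14% of the 32851 promoter windows of the same length, CTTTGA in 16.0% and CTTTGT in 18.7%. The cut of 3 equals the count in Dbx1 itself, so this share is a description. The Pax5 window held 1 match to the p53 pair, found in 0.712% of all windows, and 2 Smad boxes. That search fixed only the 2 CATG cores and left the bases around them free, so the match is not shown to be a p53 site. Msx3 had 1 Smad box, a motif found in 49.6% of all windows. En1 and Gbx2 held none of the letters searched, which says nothing of the factors that act on them, and no 2 of the marked motifs overlapped. All 5 windows had more CG dinucleotides than the median window, with 15 in Dbx1, 22 in Msx3, 23 in Pax5, 23 in En1 and 27 in Gbx2, against a median of 7.

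Recovered read totals were 19104692 to 31580252 in the genotype libraries and 20104644 to 39835808 in the E14 libraries, and libraries of 1 group correlated across genes with a Spearman coefficient of 0.974 (day 0) or 0.983 to 0.990 (all other groups). Levels below are the deposited normalised read counts, that is, reads divided by 1 factor per library, which do not correct for gene length, so levels are compared between libraries and not between genes. Log2 fold changes are given ± SE on the scale of log2(normalised read count + 1), which understates the change of low genes. A gene was called when limma's Benjamini-Hochberg adjusted p over all genes tested was under 0.05. Trp53 had 866 and 802 normalised read counts in p53 family loss EBs against 8339 and 11784 in Trp53+/+ EBs, and Trp73 had 48.0 and 52.5 against 219 and 297. Both fell (log2 fold change -3.57 with an adjusted p of 0.00168, and -2.32 with 0.0224), while Trp63 had 6 and 0 reads in p53 family loss EBs against 7 and 4 in Trp53+/+ EBs and was too low to test.

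Gbx2, En1, Pax3, Msx3 and Dbx1 rose in p53 family loss EBs at day 4. None of the 9 genes was called lower by limma, edgeR or DESeq2, nor was any lower at an unadjusted p under 0.05. En2, Pax2 and Pax5 were also higher in both p53 family loss libraries than in both Trp53+/+ libraries, but missed the threshold. Pax8 did not differ detectably. The 5 genes called higher among 9 compare with 84 of all 14840 genes tested, or 0.566%, called higher, and 100, or 0.674%, called lower. Both p53 family loss libraries lay above both Trp53+/+ libraries for 8 of the 9 genes and for 23.0% of all genes. The median log2 fold change was 2.78 over the 9 genes and 0.01 over all genes. Gbx2, En1 and En2 would have passed the filter on low reads through their Trp53+/+ libraries alone. The other 6 passed only with the p53 family loss libraries and were thus more likely to differ, and the counts and the median are a description for that reason. With no filter on low genes 5 of the 9 were also called.

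**Figure D1:**
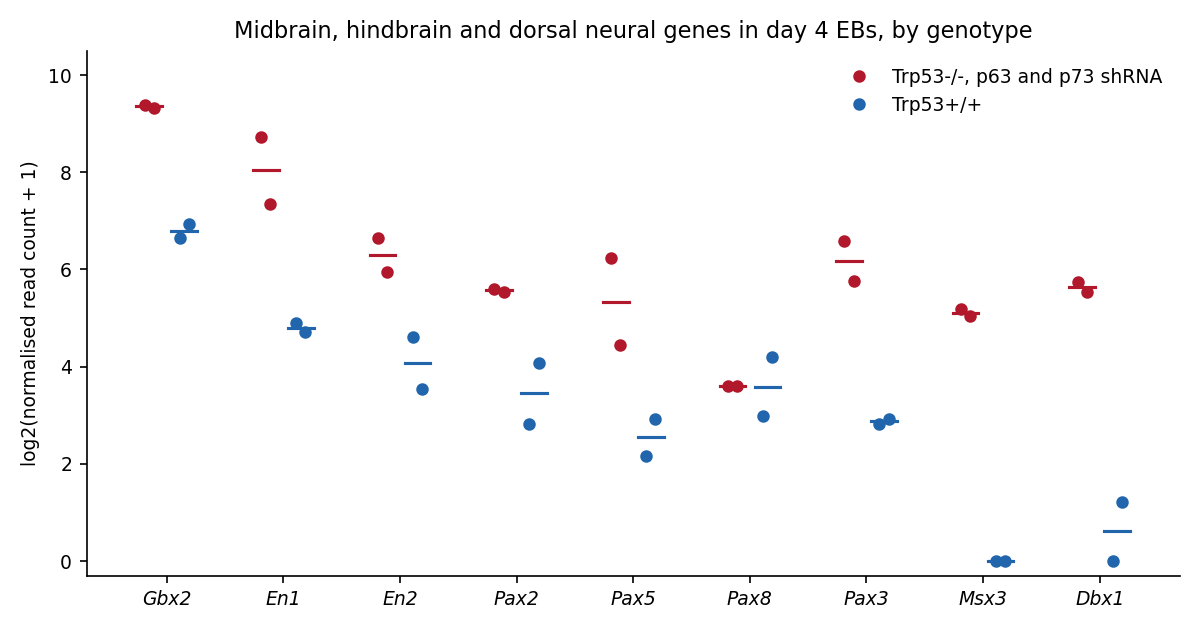
Log2(normalised read count + 1) of the 9 genes in EBs at day 4, with 1 point per library and a bar at the mean of each group (n = 2), p53 family loss in red left of Trp53+/+ in blue. The red points lie above the blue points for every gene except Pax8, and Msx3 has 0 reads in both Trp53+/+ libraries.

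Gbx2, the factor that sets the posterior side of the midbrain-hindbrain border, had 667 and 641 normalised read counts in p53 family loss EBs, against 99.9 and 122 in Trp53+/+ EBs. The libraries of each group were close to one another, and the difference between the groups was a log2 fold change of 2.55 ± 0.22 (adjusted p = 0.0105). En1, the engrailed gene that comes on first in the midbrain and anterior hindbrain, had 423 and 163 in p53 family loss EBs against 28.7 and 25.2 in Trp53+/+ EBs. Its p53 family loss libraries differed widely from one another, yet both lay above the Trp53+/+ libraries, and its log2 fold change was 3.24 ± 0.47 (adjusted p = 0.0407). En2, its paralog with a later and more posterior role in the cerebellum, had 99.0 and 61.1 against 23.5 and 10.6. The groups did not overlap, but with 2.23 ± 0.49 and an adjusted p of 0.111 the difference was not called.

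Pax2, Pax5 and Pax8 form 1 subfamily of paired box factors, of which Pax2 acts earliest at the isthmus. Pax2 had 47.3 and 45.6 normalised read counts in p53 family loss EBs against 6.08 and 15.9 in Trp53+/+ EBs, a log2 fold change of 2.12 ± 0.52 (adjusted p = 0.138). Pax5 had 73.9 and 20.6 against 3.48 and 6.63, or 2.78 ± 0.69 (adjusted p = 0.141). For both, the p53 family loss libraries were the higher ones, without a call. Pax8 had 11.1 and 11.2 in p53 family loss EBs, between the 6.95 and 17.2 of the Trp53+/+ EBs. Its log2 fold change was 0.01 ± 0.56 (adjusted p = 0.997), which at 8 to 15 reads per library cannot show that the level was the same. In the RefSeq annotation Pax2 overlaps Mir6405 and 1700039E22Rik, Pax5 overlaps Mir5120, Gm12462 and 5730488B01Rik, and Pax8 overlaps Gm13415, and since the library kit does not mark the strand, reads of such neighbours cannot be told apart.

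Pax3, a paired box factor of the dorsal neural tube and neural crest, had 94.6 and 53.3 normalised read counts in p53 family loss EBs against 6.08 and 6.63 in Trp53+/+ EBs. Its log2 fold change of 3.29 ± 0.45 was called (adjusted p = 0.0318). Msx3, the only Msx gene that is confined to the dorsal neural tube in mouse embryos, had 48 and 37 reads in p53 family loss EBs, or 35.5 and 31.8 normalised read counts, against 0 in both Trp53+/+ libraries. Set against the floor of 3 reads per library, Msx3 was at least 10.2-fold higher (adjusted p = 0.0166). Dbx1 had 71 and 53 reads, or 52.5 and 45.6 normalised read counts, against 0 and 1 reads. The ratio of its summed reads, 124 over 1, corrected for the summed scaling of the libraries, was 93.9, with a 95% interval of 16.5 to 3738 that covers counting error only, and Dbx1 was called higher (adjusted p = 0.0218). Msx3 and Dbx1 thus had at most 1 read in any Trp53+/+ library.

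Some of the calls depended on single libraries. When 1 library was left out, the log2 fold change was 2.41 to 2.70 for Gbx2 and 2.55 to 3.93 for En1. Without p53 family loss replicate 1, which had the higher value for each of the 9 genes except Pax8, only Gbx2, En1 and Dbx1 were called. The log2 fold change was then 2.89 for Pax3 (adjusted p = 0.0956) and 5.04 for Msx3 (adjusted p = 0.0647). Without Trp53+/+ replicate 2, 8 of the 9 genes were called, all but Pax8, and the number of all genes called was then 1113 in place of 184.

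Set beside the E14 course, the p53 family loss EBs held more of some of these messages than any E14 library. They held less En2 and Pax8 than any E14 library of day 0 or 1. The tables were normalised separately, so these levels are CPM, reads scaled to a common library total, and carry no test. For Pax2, Pax5, Pax3, Msx3 and Dbx1 both p53 family loss libraries lay above all 10 E14 libraries, a pattern that 9.53% of the 14840 genes shared. These genes passed the filter on low reads only with the p53 family loss libraries, so the comparison with that share is a description. Both Trp53+/+ libraries lay above all 10 E14 libraries for 5% of the 14840 genes. Dbx1 had 2.25 and 1.83 CPM in p53 family loss EBs, against 0 and 0.0523 in Trp53+/+ EBs and at most 0.284 in E14 cells. Pax5 had 3.17 and 0.831 in p53 family loss EBs, against 0.144 and 0.262 in Trp53+/+ EBs and at most 0.161 in E14 cells. Pax2 had 2.03 and 1.83 against 0.252 and 0.628, with an E14 maximum of 0.691. For each of these 3 genes the lowest p53 family loss library was above the highest of all other libraries.

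Pax3 had 4.05 and 2.15 CPM in p53 family loss EBs, 0.252 and 0.262 in Trp53+/+ EBs and 1.24 in its highest E14 library, which was replicate 2 of day 4. Msx3 had 1.52 and 1.28 in p53 family loss EBs, none in Trp53+/+ EBs and at most 0.334 in E14 cells. En1 had 18.1 and 6.54 in p53 family loss EBs, against 1.19 and 0.995 in Trp53+/+ EBs. Only its first p53 family loss library exceeded the E14 maximum of 9.32, which was replicate 2 of day 4. Replicate 1 of E14 day 4 had 2.02. Gbx2, En2 and Pax8 stayed inside the E14 range in all p53 family loss libraries. Gbx2 had 28.6 and 25.8 in p53 family loss EBs and 4.14 and 4.82 in Trp53+/+ EBs. In E14 cells of the same day 4 it had 8.69 and 23.2, both above the Trp53+/+ values and below the p53 family loss values. At earlier days E14 cells had 17.7 and 90.2 at day 0 and 36.0 and 18.4 at day 1. The p53 family loss values lay between the 2 libraries of day 0 and between those of day 1. En2 reached 4.24 in p53 family loss EBs against 14.8 in replicate 2 of E14 day 0. Pax8 reached 0.475 in p53 family loss EBs against 19.8 in an E14 library of day 1.

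**Figure D2:**
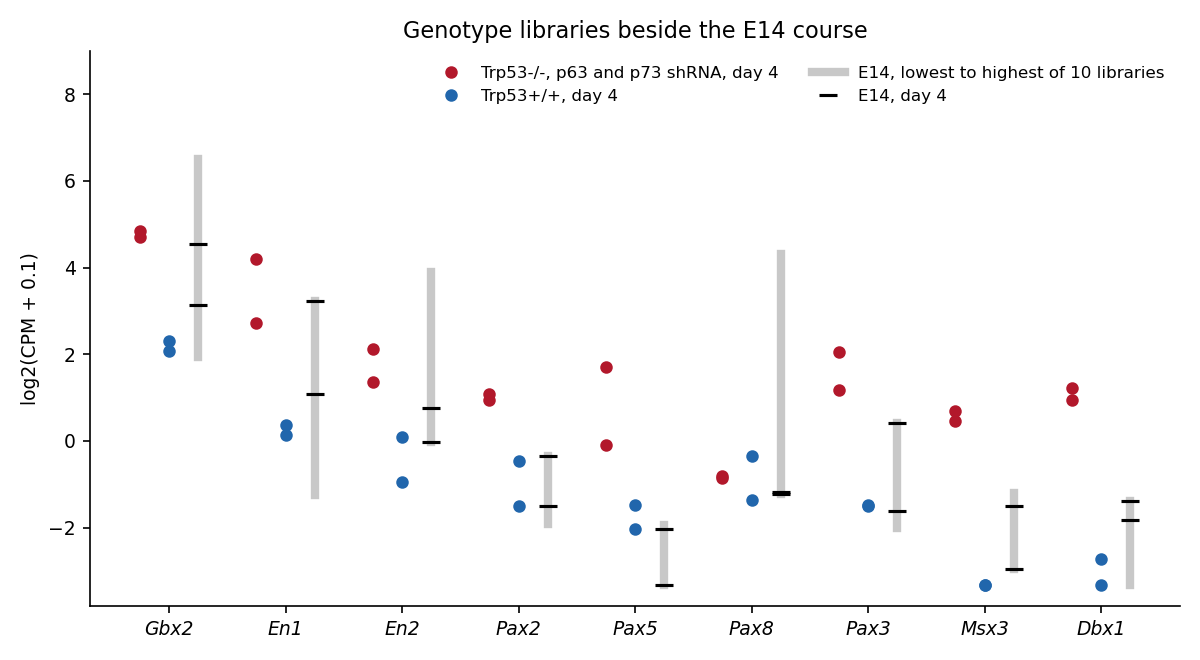
Log2(CPM + 0.1) of each gene in the day 4 EBs of p53 family loss (red points) and Trp53+/+ (blue points), beside the range over the 10 E14 libraries (grey bar, with black marks for the 2 E14 libraries of day 4). Both red points lie above the grey bar for Pax2, Pax5, Pax3, Msx3 and Dbx1, and inside or below its top for Gbx2, En2 and Pax8.

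The signals and partners of these factors did not move as 1 group between the genotypes. Of the 18 isthmus genes tested besides the 9, Wnt1, the signal that maintains En1 at the isthmus, was called higher and Fgf8, the organizer signal, was called lower, while 16 were not called. Wnt1 had 26 and 19 reads in p53 family loss EBs and 0 in both Trp53+/+ libraries, at least 5.40-fold more against the same floor (adjusted p = 0.0356), and neither edgeR on the recovered reads (adjusted p = 0.0583) nor limma without p53 family loss replicate 1 or 2 (adjusted p = 0.271 or 0.179) called it. Fgf8, which the early primitive streak also makes, had 1625 and 1459 normalised read counts in p53 family loss EBs against 4330 and 4070 in Trp53+/+ EBs (log2 fold change -1.45 ± 0.15, adjusted p = 0.0165). Otx2, the anterior partner of Gbx2 and added here after its values were seen, had 3490 and 4743 against 4114 and 4275 and overlapped between the groups. Wnt1 and Fgf8 were thus called in opposite directions.

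General neural genes leaned one way. All 16 tested had a positive log2 fold change, with a median of 1.25, but only Sox1, the earliest neural plate marker, and Lhx2, a forebrain and eye field factor, were called. Sox1 averaged 2740 ± 204 normalised read counts in p53 family loss EBs and 114 ± 14.5 in Trp53+/+ EBs (SD, n = 2 each), and its adjusted p was 0.000995. Lhx2 averaged 219 ± 8.05 and 18.2 ± 6.12 (log2 fold change 3.55 ± 0.35, adjusted p = 0.0137). The summed level of the list was 786 to 828 CPM in p53 family loss EBs and 420 to 487 in Trp53+/+ EBs. Such sums, here and below, cover every gene of a list, tested or not. Of 9 intermediate and ventral neural tube genes, Pax6 and Gsx1 were called higher. Pax6, the paired box factor of forebrain, eye and ventral progenitors, averaged 483 ± 18.6 against 17.3 ± 0.0907 (4.72 ± 0.27, adjusted p = 0.00168). Gsx1 averaged 38.7 ± 10.9 against 2.20 ± 0.65, and its adjusted p of 0.0345 became 0.155 without p53 family loss replicate 2.

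Dorsal and hindbrain lists held no gene that was called higher. Among 14 dorsal tube, roof plate and neural crest genes, 1 was called, Msx1, which averaged 45.6 ± 17.0 normalised read counts in p53 family loss EBs and 293 ± 4.63 in Trp53+/+ EBs (log2 fold change -2.71 ± 0.33, adjusted p = 0.0224). Zic1, a dorsal zinc finger factor, averaged 80.1 ± 33.0 against 7.94 ± 7.54 without a call (3.44 ± 0.72, adjusted p = 0.0981). Of 10 hindbrain segment genes 1 was called lower, Fgf3, a signal of the hindbrain and of the streak, with 48.8 ± 2.09 against 229 ± 15.7 (adjusted p = 0.0214). The hindbrain Hox gene Hoxb1 averaged 19.7 ± 10.8 against 94.6 ± 29.4 (adjusted p = 0.106).

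Other tissues that use members of this set gave few calls. Of 10 intermediate mesoderm and kidney genes, which bear on Pax2 and Pax8, 1 was called lower and none higher, and the list summed to 366 to 404 CPM in p53 family loss EBs and 515 to 809 in Trp53+/+ EBs. The gene called was Lhx1, which early mesendoderm also expresses, with 1043 ± 184 against 6124 ± 2203 normalised read counts. Limma, edgeR and DESeq2 called none of the 4 B cell genes and 2 thyroid genes tested. In p53 family loss against Trp53+/+ EBs the 9 B cell genes listed summed to 27.1 to 36.1 against 22.8 to 27.3 CPM. The 6 thyroid genes listed summed to 20.8 to 22.0 against 32.1 to 33.9 CPM. Of 8 paraxial mesoderm genes tested, which bear on Pax3, limma and edgeR called none, but DESeq2 called 4. With limma 6 of them had an unadjusted p under 0.05. The 15 paraxial genes listed summed to 70.4 to 95.4 against 51.6 to 92.3 CPM. The B cell genes Il7r, a cytokine receptor chain, and Blk, a kinase, had no read in any of the 4 libraries. The part of these cell types in the levels of Pax2, Pax3, Pax5 and Pax8 was not tested.

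Primitive streak genes moved the other way, with 9 of 12 called lower, none higher and a median log2 fold change of -2.24. They summed to 307 to 320 CPM in p53 family loss EBs and 1481 to 1579 in Trp53+/+ EBs. T, the brachyury factor of the streak, averaged 1327 ± 321 against 9692 ± 849 normalised read counts (-2.89 ± 0.20, adjusted p = 0.00444), and Mixl1, Evx1 and Wnt3 fell by 2.49, 2.49 and 2.32 on the log2 scale. Limma and edgeR called 0 of 12 naive ES cell genes and DESeq2 called 1, with 263 to 332 CPM in p53 family loss EBs and 268 to 369 in Trp53+/+ EBs. None of 7 trophoblast genes and 6 visceral endoderm genes was called by limma, edgeR or DESeq2. Of 7 feeder fibroblast genes the collagen gene Col1a2 was called higher, and the list summed to 90.3 to 113 CPM in p53 family loss EBs and 41.9 to 48.2 in Trp53+/+ EBs. At an unadjusted p under 0.05 limma had 4 naive ES cell genes, 2 thyroid genes and 1 visceral endoderm gene, and 0 B cell and 0 trophoblast genes. The part of streak, neural or fibroblast cells in the levels of the 9 genes was not tested.

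**Figure D3:**
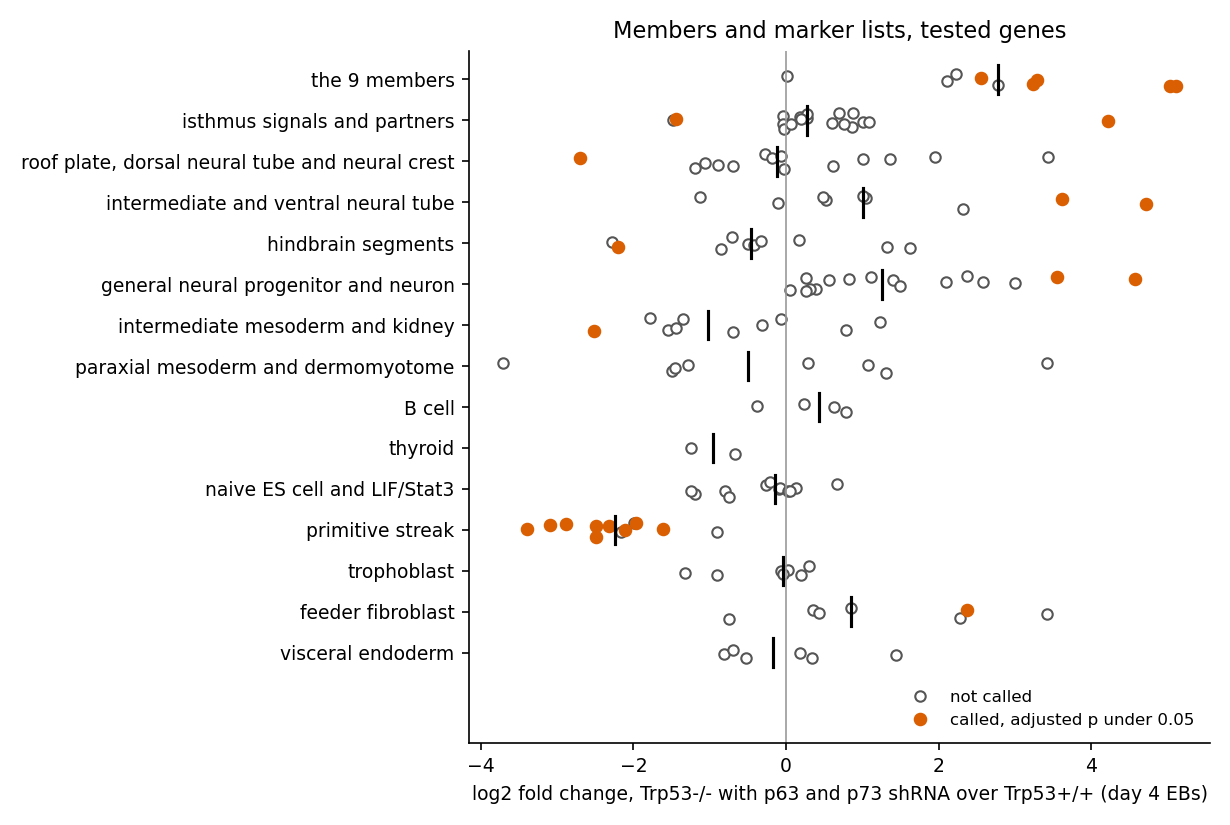
Log2 fold change of p53 family loss over Trp53+/+ for each tested gene (points, filled orange where called) of the 9 genes and of 14 marker lists, with a black bar at each list's median. The 9 genes have a median of 2.78 and the general neural genes of 1.25, while the primitive streak genes have a median of -2.24.

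Over the E14 course these genes did not follow 1 pattern. En2 and Pax8 fell at day 4 against day 0, Gbx2 also varied over the course, and limma called no other member. Of the 7 genes tested, 2 were called lower at day 4 and 0 higher, with limma, edgeR and DESeq2 alike and 0 higher at an unadjusted p under 0.05, where 16.7% of all 15841 genes were called lower, 19.2% higher and 36.0% in either direction. A test of any change over the 5 days called En2, Pax8 and Gbx2, 3 of 7, and 38.9% of all genes. Neither count lies far from what the share of all genes would give. Pax5 and Dbx1 did not reach the filter on low reads and were not tested.

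En2 had 292 and 475 normalised read counts at day 0, 370.5 and 307 at day 1, 238 and 182 at day 2, 88.7 and 72.8 at day 3 and 25.6 and 47.8 at day 4. From day 2 on, both libraries of each day lay below both of the day before. Its log2 fold change at day 4 was -3.37 ± 0.39 (adjusted p = 0.000207), and the call held without any single library. Pax8 had 36.2 and 128 at day 0, 647 and 197 at day 1, 71.4 and 32.0 at day 2, 14.3 and 17.5 at day 3, and 9.90 and 9.78 at day 4. Both day 1 libraries were thus above the other 8, and replicate 2 minus replicate 1 of that day was -1.71 on the log2 scale. At day 4 Pax8 was lower than at day 0 by a log2 fold change of -2.68 ± 0.70 (adjusted p = 0.0154). Without replicate 2 of day 0 it was -1.78 with an adjusted p of 0.0577, and without replicate 1 or 2 of day 4 the adjusted p was 0.0747 or 0.0742.

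Gbx2 had 596 and 2887 normalised read counts at day 0, 1177 and 585 at day 1, 311 and 339 at day 2, 109.7 and 162 at day 3, and 252 and 693 at day 4. Its lowest libraries were those of day 3, below all others, and the highest was replicate 2 of day 0. The change over the course had an adjusted p of 0.0233, which became 0.0541 without replicate 1 of day 1, and 0.0986 or 0.0699 without replicate 1 or 2 of day 3. Day 4 against day 0 gave -1.65 ± 0.69 (adjusted p = 0.0861), and without replicate 1 of day 0 it was called at -2.78 (adjusted p = 0.00339).

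En1 had 13.2 and 109 normalised read counts at day 0, 62.9 and 16.8 at day 1, 9.79 and 18.7 at day 2, 28.6 and 45.1 at day 3, and 58.6 and 278 at day 4. The 2 libraries of day 0 and those of day 4 overlapped in range, and the log2 fold change was 1.71 ± 1.02 (adjusted p = 0.216). Without replicate 2 of day 0 it was 3.19 and called (adjusted p = 0.0196). For any change over the course, En1 had an adjusted p of 0.188 with limma and 0.094 with edgeR, but DESeq2 called it (0.0123), as did limma without replicate 1 or 2 of day 0 (0.0347 or 0.0305). Pax3 had 7.68 and 4.75 at day 0, 13.8 and 10.4 at day 1, 9.79 and 16.0 at day 2, 7.63 and 10.2 at day 3, and 6.60 and 37.0 at day 4. Only replicate 2 of day 4 stood clear of the others, and day 4 against day 0 gave 1.27 ± 0.72 (adjusted p = 0.196), or 2.43 (adjusted p = 0.0388) without replicate 1 of day 4.

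Pax2 had 5.49 and 5.94 normalised read counts at day 0, 21.5 and 14.4 at day 1, 20.6 and 15.1 at day 2, 5.72 and 5.83 at day 3, and 7.42 and 20.7 at day 4. Its libraries of days 1 and 2 all lay above those of days 0 and 3, but the change over the course was not called (adjusted p = 0.0986). Msx3 had between 0.825, in replicate 1 of day 4, and 10.7, in replicate 2 of day 0, with no call. Pax5 had at most 5 reads in any E14 library and Dbx1 at most 10. The 10 Dbx1 reads were in replicate 1 of day 4, whose pair had 5, against 0 and 1 at day 0. With 15 reads at day 4 and 1 at day 0, the ratio of summed Dbx1 reads, corrected in the same way, was 12.3, with a 95% interval of 1.90 to 519 for counting error only.

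No step from 1 day to the next gave a call among the 7 genes with limma or with edgeR, where limma called 3.30% of all genes at day 1, 0.593% at day 2, 0.133% at day 3 and 2.93% at day 4. These shares rest on single libraries: without 1 library the number of genes called was 67 to 5176 at day 1, 0 to 1739 at day 2, 1 to 217 at day 3 and 43 to 1331 at day 4, against 523, 94, 21 and 464 with all, and each highest count came without replicate 2 of day 0. At an unadjusted p under 0.05, 2 members were higher at day 1 (Pax2 and Pax8), 1 was lower at day 2 (Pax8), 2 were lower at day 3 (En2 and Pax2), and at day 4 Gbx2 was higher and En2 lower. At the same unadjusted p, 10.7% of all genes were higher at day 1, 8.57% lower at day 2, 5.80% lower at day 3, and 8.28% higher and 6.63% lower at day 4. For Pax8 the log2 difference was 2.37 at day 1 over day 0 (adjusted p = 0.103) and -2.87 at day 2 over day 1 (adjusted p = 0.0777). DESeq2 called both, with adjusted p of 0.00937 and 0.000579, and En2 at day 3 with 0.0246.

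**Figure D4:**
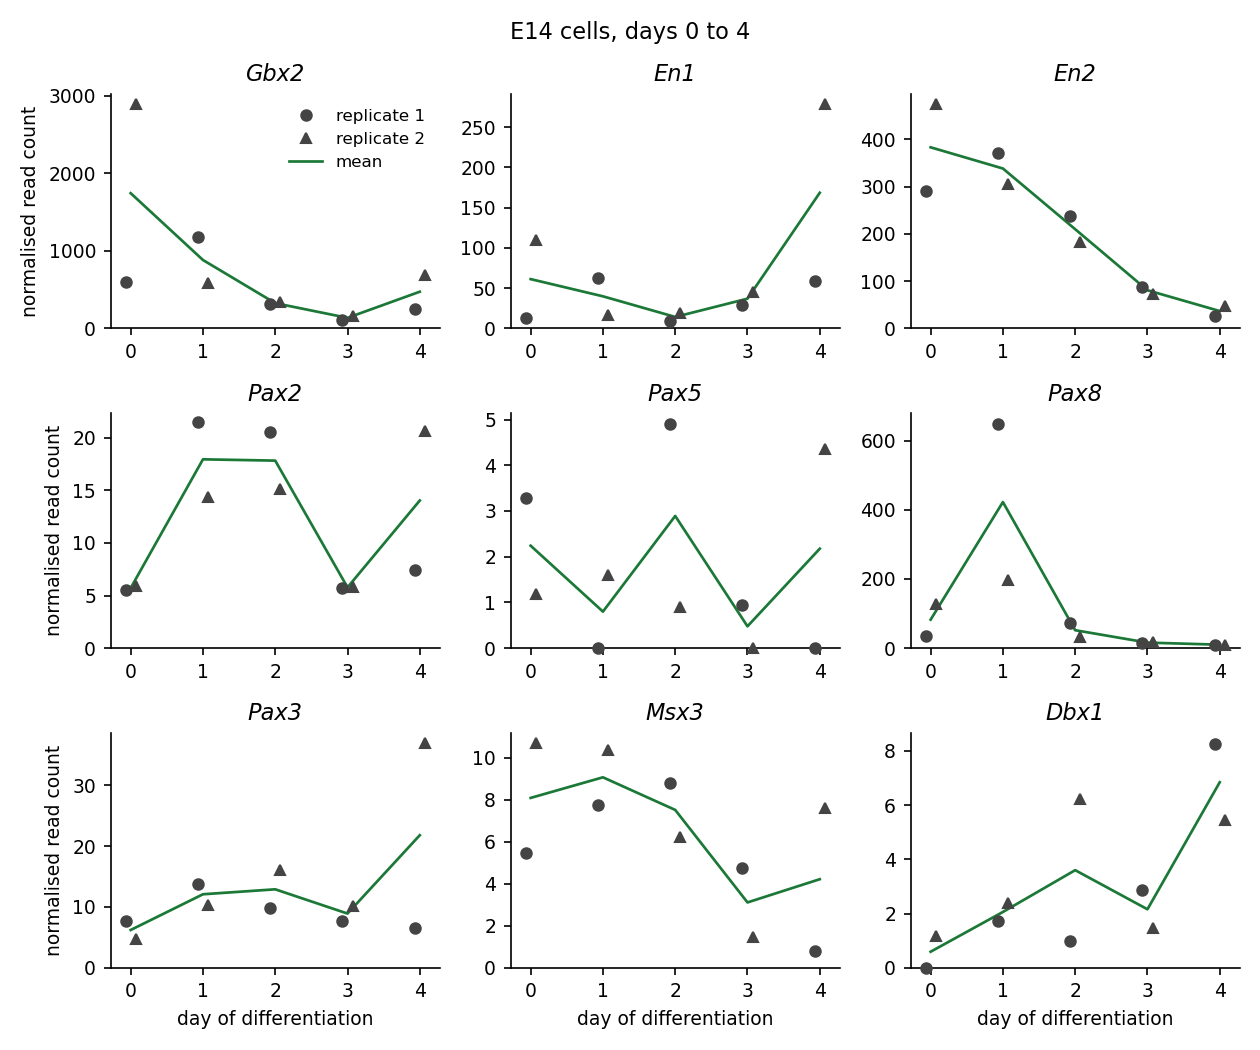
Normalised read count of each gene in E14 cells from day 0 to day 4 (circles, replicate 1; triangles, replicate 2; green line, mean of n = 2), each panel with its own linear axis from 0. En2 declines over the days, Pax8 is highest at day 1, and En1, Pax3 and Gbx2 have widely spaced libraries at day 4.

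Libraries of the same day lay far apart for several of these genes. At day 4 replicate 2 exceeded replicate 1 by a log2 difference of 2.23 for En1, 2.32 for Pax3, 2.24 for Msx3 and 1.45 for Gbx2. The difference was 2.42 for Pax5 (0 and 4 reads), 1.36 for Pax2 and 0.88 for En2, but -0.01 for Pax8 and -0.52 for Dbx1. The median size of the gap over all tested genes was 0.17. At few reads such gaps also hold counting error: in replicates 1 and 2 Msx3 had 1 and 7 reads, Pax2 9 and 19, and Dbx1 10 and 5. Sox1, chosen after its values were seen, had 28.0 normalised read counts in replicate 1 and 316 in replicate 2 of that day. T had 21465 and 16448 in the same libraries. At day 0 replicate 2 exceeded replicate 1 by 2.27 for Gbx2, 2.96 for En1 and 1.80 for Pax8, with a median gap of 0.54. In p53 family loss EBs replicate 2 minus replicate 1 was -1.37 for En1 and -1.79 for Pax5, with a median gap of 0.23. What sets these libraries apart was not tested.

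Signals and partners of the isthmus went both ways over the E14 course. Of 19 isthmus genes 8 were called higher and 6 lower at day 4. Otx2 averaged 3350 ± 301 normalised read counts at day 4 and 1198 ± 25.4 at day 0, and Cnpy1, a regulator of isthmus FGF signalling in zebrafish, averaged 103 ± 4.50 and 964 ± 365. All 11 hindbrain segment genes had a positive log2 fold change and 7 were called higher, with a median of 3.39. Hoxb1 averaged 992 ± 151 at day 4 and 10.6 ± 10.3 at day 0. Dorsal genes had 6 of 18 called higher and 3 lower, general neural genes 5 of 16 higher and 4 lower, and intermediate and ventral neural genes 2 of 9 higher and 3 lower. Sox2, which ES cells and neural progenitors share, averaged 2885 ± 954 at day 4 and 16685 ± 1561 at day 0 (-2.57 ± 0.22, adjusted p = 5.44e-05).

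Lists of other tissues were measured at the same ends of the course. Intermediate mesoderm and kidney genes had 7 of 10 called higher, paraxial mesoderm genes 4 of 12 higher and 3 lower, B cell genes 1 of 6 higher and 3 lower, and thyroid genes 0 of 3 higher and 1 lower. Of the members that also act in the kidney, Pax8 was called lower at day 4. Pax2 was higher in both day 4 libraries than in both of day 0, without a call (log2 fold change 1.01). The part of kidney-type cells in either level was not tested. Naive ES cell genes had 11 of 12 called lower, among them Esrrb, with 422 ± 140 normalised read counts at day 4 and 22885 ± 5829 at day 0, and summed to 300 to 385 CPM at day 4 against 2847 to 3585 at day 0. Primitive streak genes had 11 of 12 called higher. Trophoblast genes had 3 of 7 called higher, feeder fibroblast genes 2 of 7 and visceral endoderm genes 4 of 7, with none lower.

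Likeness over the E14 course was described by Pearson's r on log2 values over the 10 libraries, which share days, depth and scaling, among 10094 genes that averaged at least 10 CPM on some day. En2 was most like Nefh (r = 0.99), a neurofilament gene, Grhl1 and Syce1. Pax8 was most like Prune (0.99), Tnfsf12 and Srpr, and Gbx2 most like Cdk11b (0.94), Anxa6 and Copg. For Pax2 the nearest genes were Dcakd (0.96), Impdh1 and Ube2cbp, and for En1 Ccdc71 (0.93), Obfc1 and Rgs19. Msx3, with only 1 to 13 reads per E14 library, was most like Cebpz (0.90), Zscan4c and Zscan4d. Among the members, r was 0.84 between En2 and Pax8, 0.77 between En2 and Msx3, 0.71 between Pax2 and Pax3 and -0.37 between En1 and En2.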

How the data were processed

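RNA of 14 libraries was analysed, and the 16 ChIP-seq and input samples were not analysed here. Per the labels' protocols, libraries were made with TruSeq RNA v2, which does not mark the strand, and sequenced with paired ends. The submitters' processing notes name the mouse build mm9 and, with no role given, DESeq2, HTSeq 0.5.4, Bowtie2, FastQC 0.11.3 and SAMtools 0.1.19. Each of the 2 deposited tables holds a signal that is the read count over 1 factor per library. This was checked on the files: 100% of values were whole multiples of a library's step within 1e-06, which gave back the reads. Time course factors equalled median-of-ratios size factors. For the genotype libraries such size factors were 0.921 to 0.941 of the deposited factors, so levels are set across tables in CPM only.

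Computed here, on Python 3.11.15 and R 4.3.3: each table had low genes removed by filterByExpr of edgeR, applied to the recovered reads (15841 genes kept in the time course, 14840 in the genotype table), and fitted as a whole with limma 3.58.1, with an intensity trend, on log2(signal + 1), with Benjamini-Hochberg adjusted p under 0.05. The time course fit had 5 residual degrees of freedom and the genotype fit 2. The scripts were tested on simulated data. Alternatives were edgeR 4.0.16 and DESeq2 1.42.0 on recovered reads, TMM scaling, pseudocounts of 0.5 and 8, no filter, a replicate block and leaving out each library. Intervals are exact at 95%, and floors are 3 reads per library. Figures were drawn with matplotlib 3.10.9.

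The members and the 14 marker lists were chosen with earlier results of these data known, and nothing here is independent support for a pattern in them. Named besides the members are the p53 family, paralogs, up to 4 genes of each list with the smallest p in each of the main comparisons, and the 3 genes most like each tested member, leaving out Gm, LOC and Rik symbols. The genes most like Pax3 are not reported here. Sequences and overlaps are from RefSeq (GRCm38.p6), matched by symbol, and En2 and Pax3 are named without one.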

Additional observations from a re-analysis of the deposited data

How the results depend on the processing

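Of the recounts of called members, 102 stayed within 1.5 times the count given in the report and 11 did not. With limma and edgeR 0 of 7 members were called in each daily step, but DESeq2 called 1 at day 1, 1 at day 2 and 1 at day 3. Between the genotypes, with 5 called in the report, DESeq2 called 7 of 9, adding En2 and Pax5. Leaving out 1 library gave 3 to 8 called between the genotypes, 1 to 3 for day 4 against day 0, 2 to 4 for any change over the course, 0 to 1 for day 1 against day 0 and for day 2 against day 1, and 0 for the later steps. With the replicate block 8 of 9 members were called between the genotypes. Same-numbered genotype libraries deviated together (r = 0.57), but with 2 groups of 2 this does not show a pairing. In the time course r was -0.19 to 0.35. The labels do not say whether same-numbered libraries are paired, and these values cannot decide it. Counts of all genes called between the genotypes were 184 with limma, 184 with edgeR, 657 with DESeq2, 2973 with the replicate block, and 208, 220, 1613 and 1113 without p53 family loss replicate 1 or 2 or Trp53+/+ replicate 1 or 2. Without 1 library limma called 2817 to 7619 genes for day 4 against day 0 and 3444 to 10525 for any change over the course, against 5698 and 6159 with all, the lowest without a day 4 library and the highest without day 0 replicate 2. The steps also moved. DESeq2 called 1450 genes at day 1, 1287 at day 2, 315 at day 3 and 1015 at day 4, against 523, 94, 21 and 464 with limma, and 21 without a filter at day 2. Pax8 between the genotypes, 0.01 in the report, changed sign without a call: -0.022 with a pseudocount of 8, -0.067 with edgeR, -0.11 with DESeq2, -0.00065 with TMM scaling, and -0.59 to 0.61 without single libraries. Pax9 at day 4 against day 0, 0.50 with all libraries, was -0.40 to 1.39 without single libraries. Of the other member values, 418 kept their direction and their side of the threshold, 24 gained a call and 8 lost it. Of values of the other named genes 1128 kept both, 42 lost a call and 5 gained one. The causes were not tested. With 1 or no reads in Trp53+/+ libraries, the fitted changes of Msx3, Dbx1 and Wnt1 depend on the pseudocount, and no fold beyond the bounds given can be read from them.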

Other observations

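Paralogs of the 9 genes were measured in the same libraries. Msx1 and Msx2 act in the neural crest, the limb buds and other tissues besides the dorsal neural tube. Msx1 averaged 45.6 ± 17.0 normalised read counts in p53 family loss EBs and 293 ± 4.63 in Trp53+/+ EBs and was called lower, while Msx2 averaged 207 against 439 and was not called by limma (log2 fold change -1.06, adjusted p = 0.21), but was called lower by DESeq2 (adjusted p = 0.0286) and by limma without Trp53+/+ replicate 2 (-1.41, adjusted p = 0.000191). Over the E14 course both were called higher, Msx1 with 1405 ± 782 at day 4 and 14.1 ± 4.86 at day 0, and Msx2 with 3024 ± 1506 and 100.3 ± 22.7. Pax6 was called higher in p53 family loss EBs, and in E14 cells it averaged 24.6 ± 6.76 at day 4 and 1008 ± 454 at day 0 (-5.25 ± 0.38, adjusted p = 2.16e-05).

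Pax7, the paralog of Pax3, averaged 11.9 normalised read counts in p53 family loss EBs and 26.2 in Trp53+/+ EBs (-1.19, adjusted p = 0.485). Dbx2, the paralog of Dbx1, had 0.982 and 0.796 CPM in p53 family loss EBs and 0.504 and 0.680 in Trp53+/+ EBs, without a call. Gbx1, the paralog of Gbx2, was too low to test between the genotypes. In E14 cells it averaged 5.06 ± 1.01 at day 4 and 25.9 ± 8.70 at day 0, and its adjusted p of 0.0234 became 0.0711 to 0.126 without replicate 2 of day 0 or either library of day 4. Pax1, Pax4 and Pax9 were too low to test between the genotypes.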
